A study of Mus musculus with 140 samples.

Results

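The 4 mouse Hox clusters are described here through the silencer intervals listed in and around their genes. The members are the 39 protein-coding genes named Hoxa, Hoxb, Hoxc or Hoxd plus a number, of 21938 protein-coding genes in the GENCODE M21 annotation of mm10, and they comprise 11 Hoxa, 10 Hoxb, 9 Hoxc and 9 Hoxd genes. Each gene was given a territory reaching 10 kb beyond both ends of its body, and an interval touching any territory of a cluster counted once for that cluster. By this rule the clusters held 16 of the 115165 intervals of the mouse embryonic stem cell (mESC) list and 15 of the 89596 intervals of the mouse embryonic fibroblast (MEF) list.

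The study screened for silencers, sequences that reduce transcription, by Ss-STARR-seq, a plasmid reporter assay in which pieces of sheared mouse genome are tested for their effect on the reporter RNA that transfected cells make, with the plasmid library sequenced for comparison. The labels describe 56 reporter RNA libraries from mESCs, kept in N2B27 medium with 2i and LIF, in 3 output sets, 64 from MEFs, kept in DMEM with serum, in 4 output sets, and 20 libraries of the input plasmid library. The tables analysed are 1 interval list per cell type, and values per library were not analysed here. The labels give no strain, genotype or passage for either cell type, and they do not say whether the libraries of a set came from separate transfections. The assay reads each fragment on a plasmid, outside its chromosome.

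Hox genes encode homeodomain transcription factors that give cells their position along the head-to-tail axis and, later, along limbs and the genital tract. Within a cluster all genes point the same way, and their order along the chromosome follows the order of their expression domains: paralogue groups 1 to 3 (anterior) act in the hindbrain and pharyngeal arches, groups 4 to 8 (central) in the neck and thorax, and groups 9 to 13 (posterior) in the lumbar and tail region, limbs and genitalia. In mouse embryonic stem cells the clusters are a textbook target of Polycomb repression, while fibroblasts keep a Hox code of the site they were taken from.

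The clusters lie on chromosome 6 (Hoxa, 52145590 to 52270880), chromosome 11 (Hoxb, 96184316 to 96378256), chromosome 15 (Hoxc, 102911103 to 103046852) and chromosome 2 (Hoxd, 74658310 to 74775142), in mm10 coordinates of the territories' outer ends. The territories covered 125 kb in Hoxa, 140 kb in Hoxb, 136 kb in Hoxc and 117 kb in Hoxd. Hoxb was in pieces, because a gap of 54.0 kb separates the territory of Hoxb13 from that of Hoxb9. That gap, outside the rule, held 1 mESC interval (fold 2.93) and 1 MEF interval (fold 2.20). Each interval carries a fold deposited by the authors, read here as a linear ratio. It is the authors' own value and is used only to describe and rank intervals within a list. With a single list for each cell type, differences between mESCs and MEFs have no replicate check. Depth is unknown, and the exact 95% intervals below cover counting error only.

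The intervals on which the description turns are printed below from the GRCm38.p6 reference, plus strand, with the letters of any searched motif in capitals. The motifs, searched on both strands, were TGATNNAT (a composite site of HOX with its PBX partner), TGACAG (MEIS), CCATNTT (YY1), GAGAG (the repeat called GAGA below), the DR5 retinoic acid response element and the CTCF core motif. The first pair is shown because both lists name nearly the same element inside the Hoxd13 intron; the capitals in both mark the same HOX-PBX letters, matched on both strands with overlap.
Hoxd13 intron, mESC list, chr2:74669646-74669745: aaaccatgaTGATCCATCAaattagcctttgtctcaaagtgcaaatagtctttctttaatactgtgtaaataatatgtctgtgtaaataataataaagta
Hoxd13 intron, MEF list, chr2:74669633-74669732: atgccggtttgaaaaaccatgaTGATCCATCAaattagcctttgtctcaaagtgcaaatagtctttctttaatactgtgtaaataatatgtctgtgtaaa
The next set is shown for its mESC folds or its place: the highest folds of the mESC list in the clusters that lie outside untranslated regions, the exons or introns of the long non-coding RNAs Hotair and Hottip, and the interval downstream of Hoxd1. In it the capitals mark GAGA letters downstream of Hoxb2 and in Hottip, and MEIS and HOX-PBX letters downstream of Hoxd1.
Downstream of Hoxb2, mESC list, chr11:96355502-96355601: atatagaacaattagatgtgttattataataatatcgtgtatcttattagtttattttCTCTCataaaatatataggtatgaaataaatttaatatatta
Downstream of Hoxa13, mESC list, chr6:52256402-52256501: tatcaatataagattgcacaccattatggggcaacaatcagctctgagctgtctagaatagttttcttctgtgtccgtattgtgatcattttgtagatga
Hotair exon, mESC list, chr15:102944602-102944658: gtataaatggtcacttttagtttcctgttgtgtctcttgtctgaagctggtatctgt
Hottip intron, mESC list, chr6:52263552-52263701: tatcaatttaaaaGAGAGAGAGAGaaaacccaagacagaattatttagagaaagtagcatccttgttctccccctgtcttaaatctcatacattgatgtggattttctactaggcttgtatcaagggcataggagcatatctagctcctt
Downstream of Hoxd1, mESC list, chr2:74767502-74767751: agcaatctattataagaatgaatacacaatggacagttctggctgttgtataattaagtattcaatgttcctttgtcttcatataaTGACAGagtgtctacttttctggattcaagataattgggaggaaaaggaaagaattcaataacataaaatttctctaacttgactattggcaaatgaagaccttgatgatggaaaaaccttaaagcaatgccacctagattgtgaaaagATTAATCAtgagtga
The last set holds MEF intervals with a HOX-PBX, a YY1 or both kinds of match. The capitals mark HOX-PBX letters in the Hoxaas3 exon, YY1 letters in the Hoxb3os intron, and GAGA, HOX-PBX and YY1 letters downstream of Hoxd9.
Hoxaas3 exon near Hoxa7, MEF list, chr6:52214202-52214351: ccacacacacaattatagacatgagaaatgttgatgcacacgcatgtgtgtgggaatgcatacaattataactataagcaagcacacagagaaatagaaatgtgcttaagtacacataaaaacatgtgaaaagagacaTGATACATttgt
Hoxb3os intron, MEF list, chr11:96348752-96348801: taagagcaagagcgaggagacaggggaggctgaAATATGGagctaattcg
Downstream of Hoxd9, MEF list, chr2:74701152-74701451: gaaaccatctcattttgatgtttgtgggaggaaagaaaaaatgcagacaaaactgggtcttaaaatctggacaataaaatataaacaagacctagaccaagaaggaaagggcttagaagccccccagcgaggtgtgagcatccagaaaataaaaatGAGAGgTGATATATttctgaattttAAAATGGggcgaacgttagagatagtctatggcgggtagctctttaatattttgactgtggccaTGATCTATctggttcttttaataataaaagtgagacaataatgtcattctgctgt

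Each of the 4 clusters held only a few silencer intervals. Hoxd had 6 mESC and 5 MEF intervals, Hoxc had 4 mESC and 2 MEF, Hoxb had 3 mESC and 6 MEF, and Hoxa had 3 mESC and 2 MEF intervals. In mESCs that came to 51.4 intervals per Mb in Hoxd (exact 95% Poisson interval 18.8 to 112), 29.5 in Hoxc (8.03 to 75.4), 23.9 in Hoxa (4.94 to 70.0) and 21.4 in Hoxb (4.42 to 62.7). In MEFs the densities were 42.9 per Mb in Hoxb (15.7 to 93.3), 42.8 in Hoxd (13.9 to 99.9), 16.0 in Hoxa (1.93 to 57.7) and 14.7 in Hoxc (1.78 to 53.2). The counting ranges of the 4 clusters overlap in each list. Differences between clusters were not tested, so their order is a description only. Hoxb was the cluster that had more MEF than mESC intervals, and Hoxd had the highest density in mESCs and the second highest, just below Hoxb, in MEFs.

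Together the clusters had 30.9 mESC intervals per Mb (17.7 to 50.2), against 43.5 per Mb over the mm10 genome, a ratio of 0.710 (0.406 to 1.15). In MEFs they had 29.0 per Mb (16.2 to 47.8), against 33.8 per Mb over the genome, a ratio of 0.856 (0.479 to 1.41). At the genome's density the same territories would hold 22.5 mESC and 17.5 MEF intervals, and both counts lie within the counting interval of the observed ones (9.15 to 26.0 for mESC and 8.40 to 24.7 for MEF). Against the autosomes alone the ratios were 0.656 in mESCs and 0.790 in MEFs. The territories of all protein-coding genes had 48.2 mESC and 37.1 MEF intervals per Mb, both inside the counting ranges of the clusters. The 100 kb on both sides of each cluster held 39 mESC intervals (48.8 per Mb) and 35 MEF intervals (43.8 per Mb). In mESCs the flanks had 65 per Mb beside Hoxa, 35 beside Hoxb, 40 beside Hoxc and 55 beside Hoxd, each above the point value inside the cluster. In MEFs they had 60 per Mb beside Hoxa and 40 beside Hoxc, above the values inside, and 40 beside Hoxb and 35 beside Hoxd, below them.

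**Figure D1:**
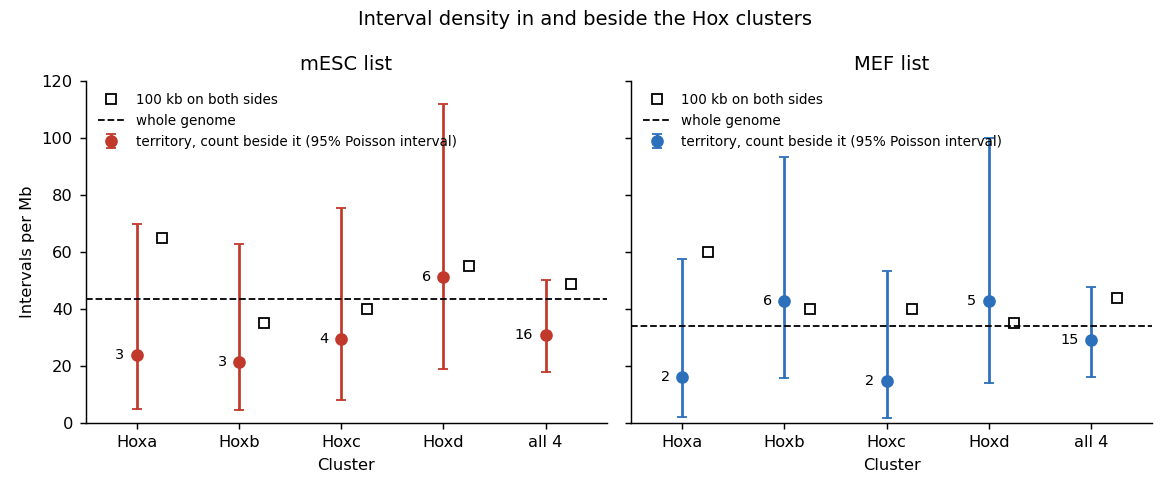
Intervals per Mb (y axis) in the territories of each Hox cluster (x axis), in the mESC list (left) and the MEF list (right). Filled points with bars are the density with its exact 95% Poisson interval and the number beside a point is its count; open squares are the 100 kb on both sides, and the dashed line is the whole genome (43.5 per Mb in mESC, 33.8 in MEF), which every bar crosses.

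The counts were then set against 15885 rows, made of 150 kb windows across the autosomes plus the 4 clusters, in a negative binomial fit with Benjamini-Hochberg adjustment over all rows. No cluster passed 0.05, with an adjusted p of 1 in each list. The unadjusted p of this fit was 0.486 for Hoxa, 0.380 for Hoxb, 0.640 for Hoxc and 0.898 for Hoxd in mESCs. In MEFs it was 0.460 for Hoxa, 0.800 for Hoxb, 0.389 for Hoxc and 0.829 for Hoxd. Observed counts were 0.454 to 1.09 times the fitted ones in mESCs and 0.401 to 1.17 times in MEFs. For Hoxd in MEFs the direction turned, to 0.938 times against 1.16, when only intervals at or above the list's median fold were counted. The fit called 0% of rows in either direction in either list, with 545 mESC and 759 MEF rows at an unadjusted p under 0.05. It also left uncalled the 273 mESC and 420 MEF rows that held no interval, and a count of 0 in a cluster would have given an unadjusted p of 0.0170 to 0.0313 in mESCs and 0.0377 to 0.0643 in MEFs. A shortage in a region of this size was therefore not detectable by this test. An excess was detectable only in part. In simulated counts, 79 of 200 mESC and 59 of 200 MEF rows raised to 4 times their mean were called.

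The clusters are poor in repeats. Across the autosomes intervals were fewest in the repeat-poorest windows, though density did not rise steadily with repeat content. Soft-masked bases, the lower-case repeats of the reference, made up 14.3% of Hoxa, 18.1% of Hoxb, 16.4% of Hoxc and 15.6% of Hoxd, against a median of 31.7% over 15888 windows, and 0.290% to 2.86% of windows had a share as low. The 983 windows with 10 to 20% soft-masked bases had 30.7 mESC and 25.03 MEF intervals per Mb. The clusters had 30.9 mESC and 29.0 MEF intervals per Mb. Density was highest in windows with 30 to 40% soft-masked bases (54.4 mESC and 41.9 MEF per Mb). Above 60% it was down to 34.5 mESC and 25.9 MEF per Mb. Each cluster was also set beside the windows with a soft-masked share no higher than its own, 46 for Hoxa, 455 for Hoxb, 188 for Hoxc and 109 for Hoxd. In mESCs Hoxa had 23.9 intervals per Mb against 18.7 in these windows, Hoxb 21.4 against 27.8, Hoxc 29.5 against 24.8 and Hoxd 51.4 against 23.7. In MEFs Hoxa had 16.0 against 14.6, Hoxb 42.9 against 22.5, Hoxc 14.7 against 19.5 and Hoxd 42.8 against 18.3. Hoxa and Hoxd thus lay above their windows in both lists, Hoxc in mESCs and Hoxb in MEFs, and every window value lies inside the counting intervals of the clusters. When only intervals with under 50% soft-masked bases were counted, the clusters held 16 mESC and 13 MEF intervals, and the ratio to the genome became 1.13 in mESCs and 1.12 in MEFs. Both ratios thus crossed 1, within counting error. They still divide by all bases, soft-masked ones included, and the clusters hold few of these. The crossing therefore cannot be read as a change of direction. The part of repeat content in the density was not tested beyond these values.

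**Figure D2:**
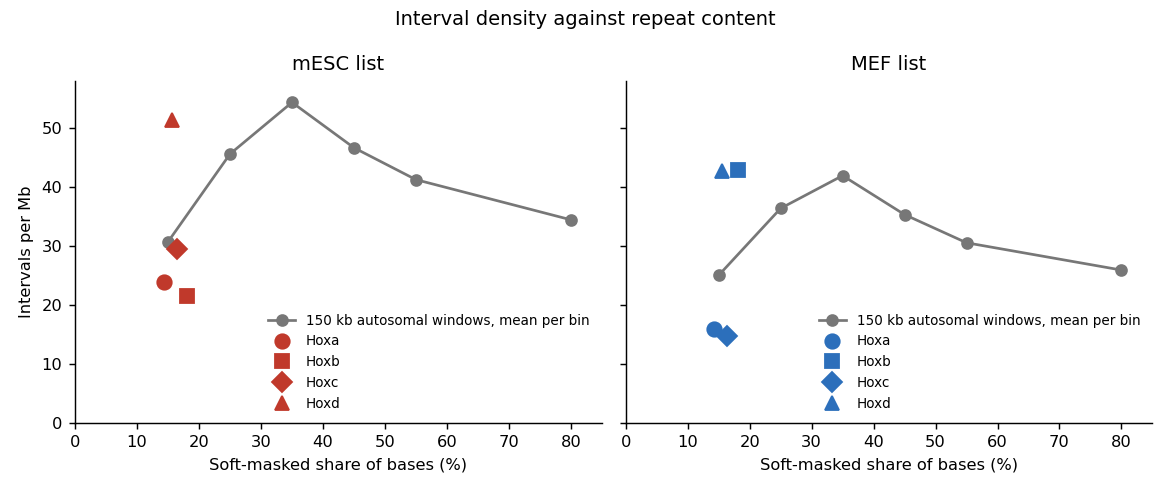
Intervals per Mb (y axis) against the soft-masked share of bases in percent (x axis) for the mESC list (left) and the MEF list (right). Grey points are means of 150 kb autosomal windows drawn at the middle of each bin, which reach 30.7 mESC and 25.03 MEF intervals per Mb in the lowest bin, and coloured points are the clusters, with Hoxd above the lowest bin in both lists and Hoxb above it in MEFs.

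The clusters also differ from most of the genome in base composition. GC content was 49.4% in Hoxa, 49.5% in Hoxb, 48.5% in Hoxc and 48.4% in Hoxd, against a window median of 41.5%. The observed over expected CpG ratio, a measure of how far CpG dinucleotides have been kept, was 0.450 in Hoxa, 0.369 in Hoxb, 0.341 in Hoxc and 0.448 in Hoxd, against a window median of 0.181. At least 99.9% of windows lay at or below each of these ratios. The intervals did not share the clusters' GC content: the summed bases of the Hox intervals were 38.6% GC in mESCs and 39.6% in MEFs, against 40.6% in the whole mESC list and 40.4% in the whole MEF list.

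**Figure D3:**
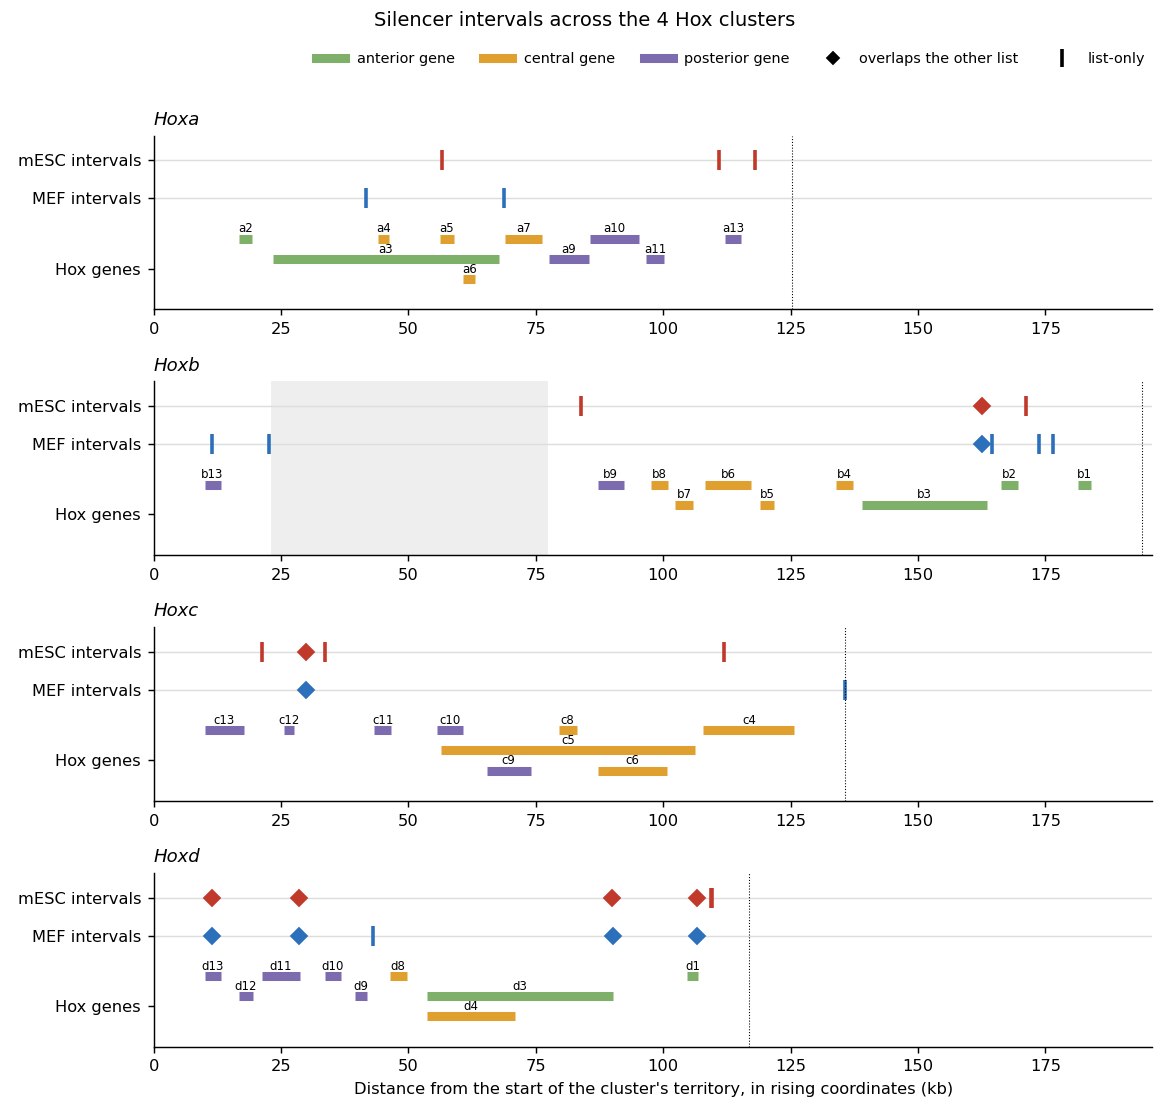
Maps of the 4 clusters drawn to 1 scale, with distance from the start of the territory in kb on the x axis. Rows give the mESC intervals, the MEF intervals and the bodies of the Hox genes described, coloured by paralogue class; diamonds overlap an interval of the other list, bars are list-only, the grey block is the gap between the Hoxb13 and Hoxb9 territories, and the dotted line ends the territory. Hoxd has 4 pairs of diamonds, and the middle of Hoxb and of Hoxc is empty in both rows.

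Hoxd is the cluster best known for patterning digits and the forearm through its posterior genes. In Hoxd 4 of 6 mESC intervals (66.7%, exact binomial range 22.3 to 95.7%) overlapped the other list. So did 4 of 5 MEF intervals (80%, 28.4 to 99.5%). The whole-list shares were 36.6% of mESC and 47.3% of MEF intervals, inside these ranges. The density of Hoxd was 1.18 times that of the genome in mESCs and 1.26 times in MEFs. With list-only intervals alone the ratios were 0.621 in mESCs and 0.480 in MEFs, on the other side of 1. The first pair lay in the intron of Hoxd13, the gene whose mutation causes fused and extra digits in human. Its mESC interval (chr2:74669646-74669745) had a fold of 3.91, higher than or equal to 91.4% of its list, and its MEF interval (chr2:74669633-74669732) a fold of 2.20, at 32.0% of its list. They shared 87 of 100 bp and ended 140 bp (mESC) and 153 bp (MEF) before the second coding exon.

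The second pair was identical in both lists (chr2:74686682-74686981, 300 bp), with the authors' fold at 2.77 in the mESC list and 2.14 in the MEF list. It lay 2546 bp past the coding end of Hoxd11, a gene of the forearm and kidney. RefSeq places all 300 bp in the untranslated part of the last Hoxd11 exon, while the GENCODE basic set has an intron there. The third pair, 1202 bp (mESC, fold 2.18) and 1275 bp (MEF, fold 2.65) past the coding end of Hoxd3, overlapped by 34 bp. Of this pair only the MEF interval reached the antisense RNA Haglr. The fourth lay in the 3 prime untranslated region of Hoxd1, as 250 bp in mESCs (fold 3.48) and 150 bp in MEFs (fold 2.56), the MEF interval lying wholly inside the mESC one. List-only intervals were a pair of mESC intervals 3115 and 3465 bp past the Hoxd1 coding end (folds 2.94 and 2.31) and 1 MEF interval 1733 bp past that of Hoxd9 (fold 2.06). Of the 9 Hoxd genes, Hoxd4 alone had no interval of either list in its territory.

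In Hoxb, whose anterior genes pattern the hindbrain, most intervals lay at the anterior end. The intervals nearest Hoxb1, Hoxb2 and Hoxb3 were 2 of 3 in mESCs and 4 of 6 in MEFs. The mESC interval 1875 bp past the Hoxb2 coding end (chr11:96355502-96355601) had a fold of 4.68, the highest in the clusters and at or above 95.3% of its list, and its 100 bp were 16.0% GC. The nearest MEF interval was 2185 bp away. The Hoxb3 untranslated region held the cluster's only overlapping pair, 250 bp in mESCs (fold 2.01) and 200 bp in MEFs (fold 2.34). Other MEF intervals were 50 bp in an intron of Hoxb3os (fold 3.27), 500 bp between Hoxb2 and Hoxb1 (fold 2.88), 200 bp nearer Hoxb1 (fold 2.49), 50 bp in the intron of Hoxb13 (fold 2.25) and 300 bp downstream of Hoxb13 (fold 2.11). Hoxb13, which lies apart from the rest of the cluster and acts in the tail bud and prostate, thus had 0 mESC and 2 MEF intervals. The third mESC interval lay 3240 bp upstream of the Hoxb9 coding start (fold 2.02). Hoxb4, Hoxb5, Hoxb6, Hoxb7 and Hoxb8 had no interval of either list in their territories.

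In Hoxc, which has no group 1 to 3 genes in mouse, 3 of the 4 mESC intervals and 1 of the 2 MEF intervals lay around Hoxc12 and Hotair at the posterior end. One mESC interval of 350 bp (fold 2.31), 2212 bp past the Hoxc12 coding end, covered a MEF interval of 50 bp (fold 2.36). Another lay 4426 bp upstream of Hoxc12 (fold 2.06), between it and Hoxc13, a gene of hair and nail growth. The third was 57 bp of an exon of Hotair, a long non-coding RNA reported in human cells to act on the HOXD cluster (fold 2.98). The remaining mESC interval lay in an intron of Hoxc4 (fold 2.03). The remaining MEF interval (chr15:103046452-103047001, 550 bp, fold 2.12) crossed the outer end of the Hoxc4 territory by 0.149 kb, and it is the member nearest to the edge of the rule. The nearest intervals outside the territories were 8.06 kb away in mESCs (right of Hoxb, fold 2.59) and 8.27 kb away in MEFs (right of Hoxa, fold 2.04). Hoxc6, Hoxc8, Hoxc9 and Hoxc10 had no interval of either list.

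In Hoxa 0 of 3 mESC intervals (exact binomial range 0 to 70.8%) and 0 of 2 MEF intervals (0 to 84.2%) overlapped the other list. Both ranges include the whole-list shares of 36.6% of mESC and 47.3% of MEF intervals, so a count of 0 does not set Hoxa apart. The 3 mESC intervals were 150 bp in the 3 prime untranslated region of Hoxa5, a gene of lung and neck development (fold 4.26), 100 bp between Hoxa11 and Hoxa13 (fold 3.33) and 150 bp in an intron of Hottip, the long non-coding RNA beyond Hoxa13 (fold 2.32). The 2 MEF intervals were 50 bp in an intron 2993 bp downstream of Hoxa4 (fold 2.43) and 150 bp in an exon of the antisense RNA Hoxaas3, 1368 bp past the coding end of Hoxa7 (fold 2.502). Between intervals of different lists the shortest distance in Hoxa was 11914 bp. Hoxa2, of second arch patterning, and Hoxa10 and Hoxa11, of the uterus and limb, had no interval of either list.

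Coding exons held no interval of either list, and none came within 1 kb of a basic-set Hox transcript start. Coding exons of the GENCODE basic set made up 36.7 kb (7.08%) of the territories, and 0 bp of them were covered in mESCs and 0 bp in MEFs. Coding exons took 0.605% of midpoints in the whole mESC list and 0.608% in the whole MEF list, so a count of 0 among so few intervals does not set the clusters apart. The bases within 1 kb of a basic Hox transcript start made up 96.0 kb (18.5%), and again 0 bp were covered in either list. Counted from the 5 prime end of the gene body, 0 of 39 Hox genes in mESCs and 1 of 39 in MEFs had an interval within 1 kb, against 5.92% of all protein-coding genes in the mESC list and 4.49% in the MEF list. At those shares 2.31 of 39 genes would have one in mESCs and 1.75 in MEFs. The exception was Hoxa3, whose long non-basic transcript starts close to the Hoxaas3 interval. With RefSeq the closest interval to a Hox start lay 1421 bp away in mESCs and 1135 bp away in MEFs, and 0 intervals touched coding sequence in either list.

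By midpoint in the GENCODE basic set, 7 of 16 mESC and 6 of 15 MEF intervals were between genes, against 51.7% of the whole mESC list and 52.0% of the whole MEF list. Introns held 4 mESC and 5 MEF intervals, non-coding exons 2 in each list, and untranslated regions 3 mESC and 2 MEF intervals. In the whole lists introns took 45.5% of mESC and 45.1% of MEF midpoints, and non-coding exons 0.872% of mESC and 0.946% of MEF midpoints. Of the bases of the Hox territories, 43.0% lay between genes, 34.4% in introns and 5.13% in non-coding exons. Untranslated regions took 1.31% of midpoints in the whole mESC list and 1.34% in the whole MEF list, and they made up 10.4% of the Hox territories. All of these untranslated intervals were 3 prime, in Hoxa5, Hoxb3 and Hoxd1 in mESCs and in Hoxb3 and Hoxd1 in MEFs. By RefSeq, which adds the Hoxd11 pair, they were 4 of 16 in mESCs and 3 of 15 in MEFs.

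The longest stretches without an interval of either list spanned the middle of Hoxb and of Hoxc. In Hoxb 78.5 kb held the whole of Hoxb4 to Hoxb9. In Hoxc 78.1 kb held Hoxc5, Hoxc6, Hoxc8, Hoxc9, Hoxc10 and Hoxc11. Of 158505 such stretches on the autosomes, with a median of 8.99 kb, 1.17% and 1.19% were at least as long, and these held 9.30% and 9.41% of the bases in stretches. Of the stretches that lay wholly inside the territories, the longest in Hoxa was 42.1 kb and held Hoxa7, Hoxa9, Hoxa10 and Hoxa11, and the longest in Hoxd was 46.8 kb and held Hoxd4 and Hoxd8. A longer stretch ran out past an end of the Hoxa territory.

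Gene by gene, 21 of 39 Hox genes had no mESC interval in their territory, against 24.5% of all protein-coding genes, and 19 of 39 had no MEF interval, against 31.5%. As shares of the Hox genes these are 53.8% for mESC and 48.7% for MEF. Neither list had an interval for 14 of 39 (35.9%), against 18.0% of all protein-coding genes, and both lists had one for 13 (33.3%), against 62.0%. Hox genes are short and lie close together, so neighbours share intervals and are not independent of each other. Among the 15479 protein-coding genes with a body as long as that of some Hox gene (1.853 to 49.987 kb), 28.7% had no mESC interval, 37.4% no MEF interval and 20.9% neither. The median body was 3.49 kb in Hox genes and 12.8 kb in that set, so length is matched in range only. The counts depend on the territory: with gene bodies alone 30 of 39 Hox genes had neither (43.7% of all protein-coding genes), and with 25 kb on each side 5 had neither (7.42%).

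Genes without any interval were most frequent in the central class. Neither list had an interval for 8 of 15 central genes, 2 of 8 anterior genes and 4 of 16 posterior genes. These are 53.3%, 25% and 25%, against 18.0% of all protein-coding genes. In mESCs 11 of 15 central, 3 of 8 anterior and 7 of 16 posterior genes had none, against 24.5% of all protein-coding genes. In MEFs the counts were 9 of 15 central, 2 of 8 anterior and 8 of 16 posterior, against 31.5% of all protein-coding genes. The central genes without intervals were Hoxb4 to Hoxb8, Hoxc6, Hoxc8 and Hoxd4. Hoxb4 to Hoxb8 lie in 1 empty stretch and Hoxc6 and Hoxc8 in another, so these genes are not independent cases. The highest counts for a single gene were 3 mESC intervals at Hoxc12 and 3 at Hoxd1, and in MEFs 4 at Hoxb2 and 3 at Hoxb3. Counts could differ between paralogues. In MEFs, group 9 had 1 interval at Hoxa9, 0 at Hoxb9, 0 at Hoxc9 and 1 at Hoxd9, and group 13 had 0 at Hoxa13, 2 at Hoxb13, 0 at Hoxc13 and 1 at Hoxd13. In mESCs, group 13 had 2 at Hoxa13, 0 at Hoxb13, 1 at Hoxc13 and 1 at Hoxd13, while group 8 had 0 at Hoxb8, Hoxc8 and Hoxd8.

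**Figure D4:**
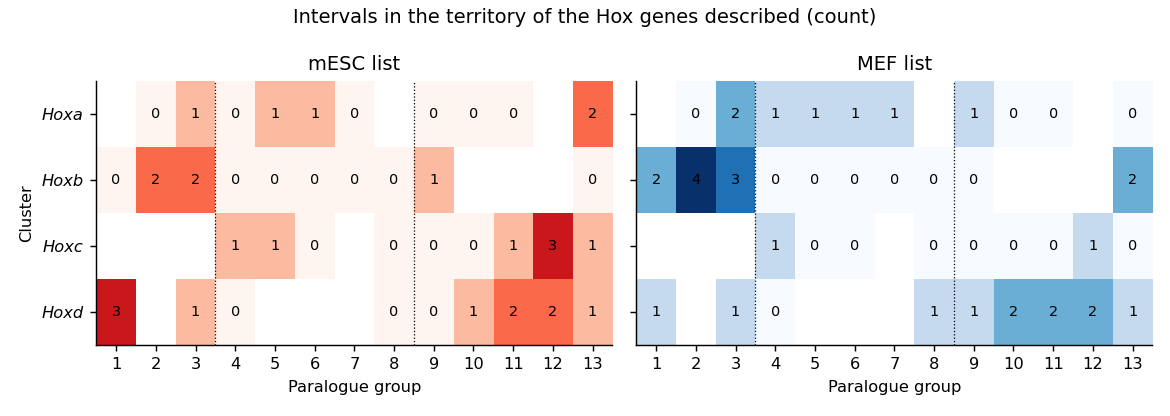
Number of intervals in the territory of the Hox genes described, with clusters in rows and paralogue groups 1 to 13 in columns, for the mESC list (left) and the MEF list (right). Blank cells have no gene or are not shown, dotted lines part anterior, central and posterior groups, and neighbouring genes can share an interval. The central block of Hoxb reads 0 in both lists, and the highest cells are 3 in mESC (Hoxc12, Hoxd1) and 4 in MEF (Hoxb2).

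Over the clusters, 6 of 16 mESC intervals (37.5%, exact 95% binomial interval 15.2 to 64.6%) and 6 of 15 MEF intervals (40%, 16.3 to 67.7%) shared at least 1 bp with an interval of the other list. The whole-list shares were 36.6% of mESC and 47.3% of MEF intervals, inside these ranges. Of these pairs, 4 lay in Hoxd, 1 in Hoxb and 1 in Hoxc. The mESC share of all intervals was 51.6% (33.1 to 69.8%), against 56.2% over both lists. By cluster it was 60.0% in Hoxa, 33.3% in Hoxb, 66.7% in Hoxc and 54.5% in Hoxd, each with a range that includes 56.2%. The share describes the lists and not the cells, since the sources used here do not state the thresholds behind them.

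Folds in the clusters lay around the list medians. The median fold was 2.55 in mESCs, against 2.42 over that list, and 2.36 in MEFs, against 2.36. In mESCs the folds ran from 2.01 to 4.68 and in MEFs from 2.06 to 3.27, while the highest in the whole lists were 117 in mESC and 84.4 in MEF. By cluster the mESC medians were 3.33 in Hoxa, 2.02 in Hoxb, 2.19 in Hoxc and 2.85 in Hoxd, and the MEF medians were 2.47 in Hoxa, 2.42 in Hoxb, 2.24 in Hoxc and 2.20 in Hoxd. Every fold in the clusters recurred in its list, from 4 intervals (the MEF interval at Hoxc4) to 2262 intervals (the mESC interval in the Hoxc4 intron), and 99.2% of mESC and 99.01% of MEF intervals carry a fold listed more than once. The folds thus come in steps of unknown error.

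**Figure D5:**
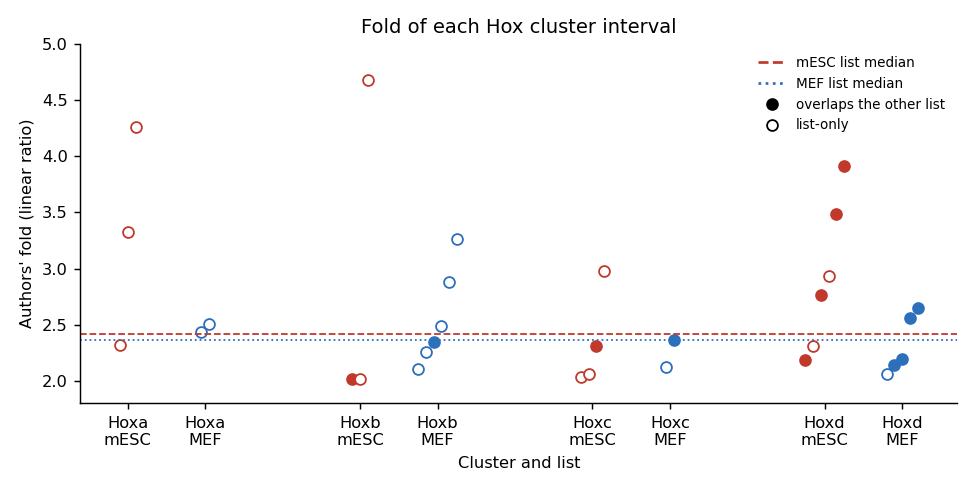
The authors' fold, read as a linear ratio, on the y axis (from 1.8 to 5) for each interval of the 4 clusters. For each cluster on the x axis the mESC list is left of the MEF list. Filled points overlap the other list, open points are list-only, and lines mark the list medians (2.42 in mESC, 2.36 in MEF). Folds above 3.4 are all in mESC, at Hoxb2, Hoxa5, Hoxd13 and Hoxd1.

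The Hox intervals had a smaller soft-masked share than their lists. None of 16 mESC intervals and 2 of 15 MEF intervals were over 50% soft-masked, against 36.5% of mESC and 33.5% of MEF list intervals. Those 2 were the 50 bp Hoxc12 interval, wholly soft-masked, and the 200 bp interval upstream of Hoxb1, at 62.0%. Of the summed bases, 19.0% were soft-masked in mESCs and 19.1% in MEFs, against 41.5% over the mESC list and 38.7% over the MEF list. The Hox territories together were 16.2% soft-masked, so the intervals were not poorer in repeats than the regions that hold them.

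A HOX-PBX match was present in 4 of 16 mESC intervals (25%), against a mean of 10.7% over list intervals of the same lengths, and in 4 of 15 MEF intervals (26.7%), against 13.0%. Those in mESCs were the Hoxb3, Hoxc4 intron, Hoxd13 and downstream Hoxd1 intervals, and those in MEFs the Hoxaas3, Hoxc4, Hoxd13 and Hoxd9 intervals. The printed Hoxd13 pair is 1 element and was counted in each list. YY1 letters were in 1 of 16 mESC intervals (6.25%, against 14.2%) and 6 of 15 MEF intervals (40%, against 16.7%), and 4 of those 6 lay near Hoxb genes. MEIS letters were in 3 mESC intervals (18.8%, against 9.30%) and 1 MEF interval (6.67%, against 11.0%). GAGA letters were in 6 mESC intervals (37.5%, against 30.7%) and 4 MEF intervals (26.7%, against 33.6%). At least 1 CpG was in 10 mESC intervals (62.5%, against 58.8%) and 11 MEF intervals (73.3%, against 61.3%). The CTCF and DR5 letters were in 0 Hox intervals of either list. Over list intervals of the same lengths the share was 0% for CTCF in both lists. For DR5 it was 0.000558% in mESCs and 0.0285% in MEFs, so a count of 0 does not set the clusters apart. With so few intervals these shares are descriptions, and a match is a run of letters and not a shown binding site.

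Lists of genes that lie beside, work with or resemble the Hox genes were counted in the same way. The 13 annotated genes beside the clusters had 60.4 mESC intervals per Mb (46.9 to 76.6) and 44.4 MEF intervals per Mb (33.0 to 58.6), led by Skap1 (20 mESC, 15 MEF), Cbx5 (13 mESC, 11 MEF), which encodes the heterochromatin protein HP1 alpha, and Hibadh (9 mESC, 8 MEF). The 16 non-coding RNAs inside the clusters had 35.1 mESC and 27.0 MEF intervals per Mb, and 7 had neither. Haglr had 4 mESC and 2 MEF intervals and Hoxb3os had 2 mESC and 4 MEF intervals. These RNAs lie among the Hox genes, so their counts include intervals already counted for the clusters and are not a separate comparison. The 9 HOX cofactors of the Pbx, Meis and Pknox families had 45.2 per Mb in both lists, with Pbx3 at 21 mESC and 14 MEF intervals and Meis2 at 16 in each. The 19 regulators of Hox genes had 50.2 mESC and 51.8 MEF intervals per Mb, and 5 had neither. The highest counts were at the retinoic acid receptor gene Rarb (11 mESC, 14 MEF) and the Polycomb genes Rnf2 (9 mESC, 12 MEF) and Suz12 (8 mESC, 11 MEF). Counts by gene are not set against length. Bodies span 388 kb in Rarb, 295 kb in Skap1, 203 kb in Meis2 and 202 kb in Pbx3, but 43.0 kb in Rnf2 and 41.0 kb in Suz12. The 23 other homeobox genes that lie in pairs or clusters had 22.1 mESC intervals per Mb (11.8 to 37.8) and 34.0 MEF intervals per Mb (20.8 to 52.5), and 7 of 23 had neither, while Irx5 had 2 mESC and 3 MEF intervals. Their densities lay within the counting ranges of the Hox clusters in both lists.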

How the data were processed

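The tables used were 1 list of silencer intervals for mESCs and 1 for MEFs, giving positions and a fold. The file headers name this fold FC, and it was read here as the authors' ratio for the interval on a linear scale. The sources used here do not give the libraries it compares, the caller or how replicates were handled. Bowtie2 and SAMtools are named, without versions, in the submitters' processing notes, which also name hg38. The series design text names mm10, and 0 intervals in either list ended past an mm10 chromosome, so mm10 was used. Starts were read as counted from 0, which leaves an uncertainty of 1 bp.

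Genes came from GENCODE M21, with RefSeq transcripts as a cross-check, and sequence and soft-masking from GRCm38.p6. An interval of at least 1 bp overlap with a territory was a member, and midpoints set its annotation class. Windows of 150 kb with over 10% gaps were left out. Densities carry exact Poisson, and shares exact Clopper-Pearson, 95% intervals. The negative binomial fit used 1 mean per base and 1 dispersion, gave a two-sided tail p, and was tested on simulated counts. The members and lists were chosen with earlier results of these data known. The rule for names took all 39 Hox genes and the 3 members of each gene list with the most intervals in both lists together, fewer where the third place was tied. Some genes that this rule takes are counted in the totals but are not reported here by name. Of 14 genes beside the clusters, Prac1 was not matched by symbol. The bins of soft-masked share, the genes of Hox-like body length, the RefSeq cross-check and the autosomal base were added after the data were seen. Alternatives covered the territory, the overlap, the fold, the soft-masked share, the windows and the spread. Work used Python 3.11.15, pandas 2.3.3, scipy 1.17.1 and statsmodels 0.14.6.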

Additional observations from a re-analysis of the deposited data

How the results depend on the processing

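No paired analysis was possible because the lists hold no values per library and no replicate numbers. Of 151 alternative values over 28 results, 143 were labelled the same as the reported value. For densities and shares this means inside its counting range, and for counts of genes within a fixed fold of it. For the window fit it means the same side of 1 and still no call. These bands are wide at such low counts, so the 143 are not a test of robustness. For the clusters together the density over that of the genome ran from 0.565 to 1.13 in mESCs and from 0.726 to 1.12 in MEFs. Some ratios crossed 1. Those with intervals under 50% soft-masked still divide by all bases, soft-masked ones included, so their crossing shows no change of direction. The Hoxd MEF count over its fitted count was 1.16 as reported and 0.938 with intervals at or above the median fold, both with an adjusted p of 1 in the negative binomial fit. Within counting error, the densities over that of the genome also crossed 1 for the clusters together (to 1.13 in mESCs and 1.12 in MEFs) and for Hoxc in mESCs (0.677, then 1.07) with intervals under 50% soft-masked, for Hoxd with list-only intervals (1.18, then 0.621, in mESCs and 1.26, then 0.480, in MEFs) and for Hoxb in MEFs with gene bodies only (1.27, then 0.968). The Hoxc MEF density over the genome density was 0 with gene bodies only and 0 with intervals at or above the median fold, because no interval was left, and with the median fold the Hoxc mESC share was 100%, from 1 interval. With gene bodies only, 32 Hox genes had no MEF interval and 30 had neither; with 25 kb on each side, 6 had no mESC interval and 5 had neither. With a Poisson spread the window fit called 120 mESC and 44 MEF rows with more intervals than fitted, against 0 in the negative binomial fit, and no cluster. A cluster holds 2 to 6 intervals of a list, so counting error limits every statement on 1 cluster, and the depth behind the lists is unknown. In simulated counts the negative binomial fit called 0 of 200 rows lowered to 0.2 of their mean in each list. Of 200 rows raised to 4 times their mean, it called 79 in the mESC list and 59 in the MEF list.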
